A study of Orbicella faveolata with 56 samples.

Results

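Inshore corals kept at an inshore site and heated to 32 °C were compared with fragments of the same corals held at 30 °C. The comparison takes 16 of the 55 RNA sequencing libraries of the series that could be matched to a label: 8 at 32 °C and 8 at 30 °C, 1 of each from corals A3, A5, A6, B1, B2, B3, B4 and B6. All 16 come from tissue of Orbicella faveolata, a reef-building coral of the Caribbean, collected at inshore reefs of the Florida Keys and placed at the inshore transplant site, so origin and site are shared by both groups. Per the labels, temperature was brought to its end point over 7 days and held for 6 days. A3, A5 and A6 carry 1 genotype label, In1, and the other 5 corals carry 5 others (In4, In5, In6, In7 and In2), which makes 6 genotypes. In1 is also the only genotype from collection site UKI2, so that genotype and that site cannot be told apart. The labels do not say how far apart the fragments of a coral were kept, whether tanks were shared, or how old the corals were.

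A reef-building coral is an animal that houses single-celled dinoflagellate algae inside its gut-lining cells and lives largely on the sugars they make. Sustained warming disturbs algal photosynthesis and protein folding, animal cells answer with chaperones, antioxidant enzymes and immune and cell death pathways, and the partnership can break down as bleaching. Durusdinium trenchii, the alga whose transcripts fill the second deposited table, is known as a heat-tolerant partner. The files give assembly identifiers without gene names or sequences, so none of these pathways can be followed by name here, and the labelled tissue could not be checked against marker genes. What follows describes how strongly, and how alike, the 8 corals moved.

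Host totals of the 16 libraries lay between 4677611 and 5920009 estimated counts, with a median of 5313476. Every pair of libraries of the same temperature differed by more than sampling noise (56 pairs, chi-square at least 5.25 times its degrees of freedom), so none was counted as a repeat of another. The nearest library, by correlation of log2 levels over 26002 host rows, was of the same coral for 10 of the 16 and of the same genotype for 15, so libraries grouped by coral and genotype more than by temperature. The exception by genotype was B3 at 30 °C. B3 at 32 °C stood apart, with a mean correlation of 0.783 with the other 15 libraries against a median of 0.863. Some counts and means are also given without B3, and others, such as the split by abundance, include it.

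Across all 8 corals no host row passed the threshold for heat when the 16 libraries were fitted alone. The call was 0 of 26002 rows (0%), with 1262 rows higher (4.85%) and 967 lower (3.72%) at 32 °C at an unadjusted p under 0.05, together 8.57% of those tested, and a lowest adjusted p of 0.055 (edgeR quasi-likelihood test, coral as block, Benjamini-Hochberg). The typical difference was small: the median absolute log2 change was 0.159, and 292 rows had an absolute log2 change over 1. The count differed between tests and between sets of libraries. DESeq2's Wald test called 98 rows higher and 33 lower among 78642 (0.167%), and on the same 26002 rows 98 higher and 51 lower (0.573%). Here and below, DESeq2 shares are over the rows given to it. Its own filter can leave some of those rows without an adjusted p. One edgeR fit over all 55 libraries, which leaves 35 residual degrees of freedom in place of 7, called 182 rows higher and 54 lower for the same contrast (0.67% of 35219). The same contrast in one edgeR fit over the 32 libraries of inshore corals called 46 rows higher and 11 lower (0.192% of 29680). These fits contain the same 16 libraries and are no independent repeat of the comparison. Without B3, DESeq2 called 133 higher and 34 lower (0.214% of 77862), and on the filtered rows 143 and 46 (0.727%). The edgeR fit over all libraries then called 150 higher and 17 lower (0.479% of 34859), and that over the inshore corals 75 and 8 (0.279% of 29715). In these larger call sets more rows were higher than lower at 32 °C, and in the fit of the 16 libraries alone no single row was called.

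Rows that were higher at 32 °C in every coral were most frequent among abundant rows. In 252 rows (0.969% of 26002) the level at 32 °C was higher in 8 of 8 corals, and in 202 rows (0.777%) it was lower in 8 of 8. The most frequent outcome was an even split, in 5821 rows (22.4%). When rows were split by mean level into 4 equal parts, the top part had a median of 6.08 log2 CPM (CPM being counts scaled to a common library total), and 97 of its 6501 rows were higher in every coral (1.49%) and 44 lower (0.677%). The lowest part had a median of 1.75 log2 CPM, and 41 of its 6501 rows were higher in every coral (0.631%) and 48 lower (0.738%). In the middle parts, the scarcer first, 0.831% and 0.923% were higher and 0.954% and 0.738% lower. The median absolute log2 change was 0.124 in the top part and 0.207 in the lowest. Scarce rows carry more counting noise, so 1 direction in every coral is harder to see in them. The 252 rows came from 249 assembly components and the 202 rows from 201, so few of them shared a component. Without sequences it could not be checked whether separate components belong to 1 gene. In 6 rows (0.0231%) the 8 levels at 32 °C did not overlap the 8 at 30 °C, above them in 3 (0.0115%) and below them in 3 (0.0115%). These counts describe the 26002 rows that passed the low-count filter, and fewer cells of a type and less RNA per cell cannot be told apart in such tissue.

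Each coral was then set against the other 7. Rows that were higher at 32 °C in all 7 other corals were taken, and the share of them that was also higher in the coral left out was read, which uses none of that coral's libraries to choose the rows. B4 was higher in 79.7% of 316 such rows, against 48.1% of all rows, and B2 in 78.3% of 322, against 50.1%. A3 followed in 75% of 336 rows, B1 in 69% of 365 and A5 in 68.3% of 369, against 51.3%, 50.1% and 52.9% of all rows. B6 and B3 followed less closely, in 60% of 420 and 56% of 450 rows, against 50.4% and 50.7%. A6 went the other way: it was higher in only 25.2% of the 1001 rows that were higher in the other 7, against 47.7% of all its rows, and its median log2 change over them was -0.272.

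**Figure D1:**
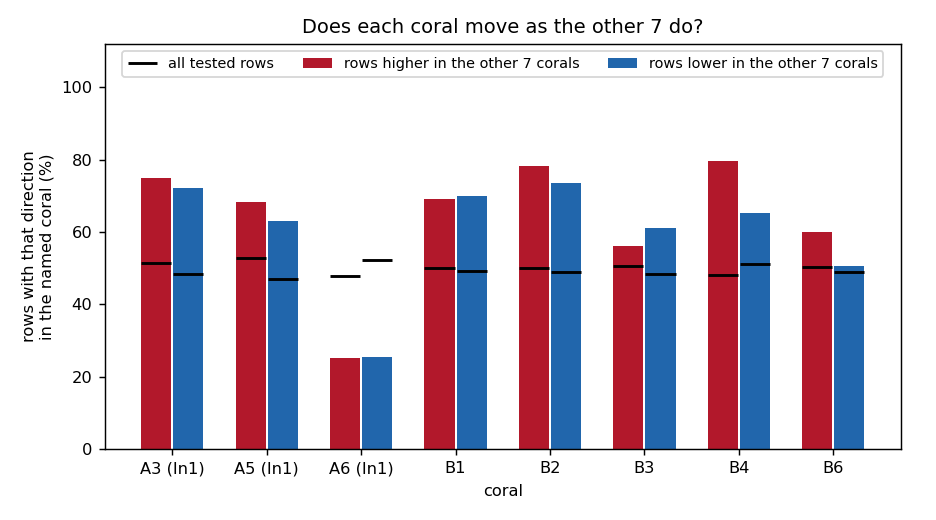
Share of host rows (%) that moved in each coral the way all 7 other corals moved, for rows higher (red) and lower (blue) at 32 °C, with the same share over all 26002 rows as a black line. A6 sits near 25% for both directions, below its lines, and the other 7 corals sit above theirs.

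The same held for rows that were lower at 32 °C. A6 was lower in 25.5% of 791 rows that were lower in the other 7 corals, with a median log2 change of 0.313 over them. B2 was lower in 73.5% of 275 such rows, A3 in 72.1% of 280 and B1 in 69.9% of 289. B6 was lower in 50.5% of 400, close to the 48.8% of all its rows, so over these rows B6 differed little from its own background. A6 thereby set the number of rows with 1 direction: 1001 and 791 rows were higher and lower in the other 7 corals, and 252 and 202 of them remained once A6 was required to move the same way. Without A6 the edgeR fit still called 0 rows, with 3584 at an unadjusted p under 0.05 against 2229 with it.

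A6 carries the same genotype label as A3 and A5, yet its changes ran against theirs. Over 26002 rows, which are not independent replicates, the log2 changes of A5 and A6 correlated at r = -0.265 and those of A3 and A6 at -0.065, while those of A3 and A5 correlated at 0.258. A6 was negatively correlated with all 5 corals of other genotypes, from -0.149 to -0.060. Of the 20 pairs of different genotypes without A6, 19 were positive, with a median of 0.152 and a highest value of 0.307 between B2 and B4. The exception was B3 with B6 at -0.331. No library is shared between corals in these correlations.

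**Figure D2:**
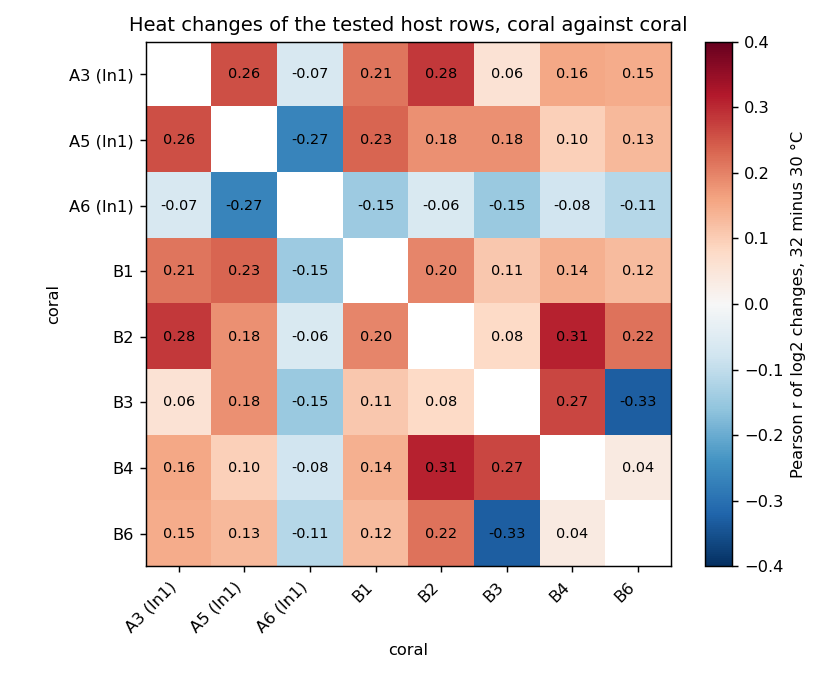
Pearson correlation of the log2 changes (32 minus 30 °C) of 26002 host rows between corals. Most cells are weakly positive, the row of A6 is negative throughout, and B3 with B6 is the lowest cell.

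The departure of A6 was mainly in the level of its 30 °C library. Rows, chosen without In1 libraries, were taken that were higher at 32 °C in all 5 B corals (1736 rows) or lower in all 5 (1485 rows), and the 6 In1 libraries of the inshore site were read against their own mean. For the 1736 rows the medians at 32 °C were 0.04 (A3), 0.10 (A5) and -0.01 (A6) on the log2 scale. At 30 °C they were -0.12 (A3) and -0.13 (A5), but 0.16 in A6, the highest of the 6. For the 1485 rows the medians at 32 °C were -0.01, -0.09 and 0.02 in A3, A5 and A6, and at 30 °C 0.18 and 0.20 in A3 and A5, against -0.28 in A6. Relative to the other In1 libraries, A6 at 30 °C was thus displaced in the direction that the B corals took at 32 °C, and A6 at 32 °C was near the middle of its genotype. In overall profile the A6 library at 30 °C was the least like the other 5 In1 libraries, with correlations of 0.896 to 0.938, against 0.954 to 0.970 among those 5. Its nearest library was still an In1 library, A5 at 32 °C. At the offshore site the pattern was not repeated: over the 1736 rows A6 had a median of 0.17 at 32 °C and -0.07 at 30 °C, and over the 1485 rows -0.18 and 0.12. Over the 1736 rows A3 had 0.01 at 32 °C and 0.00 at 30 °C there, and A5 -0.04 and -0.03.

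**Figure D3:**
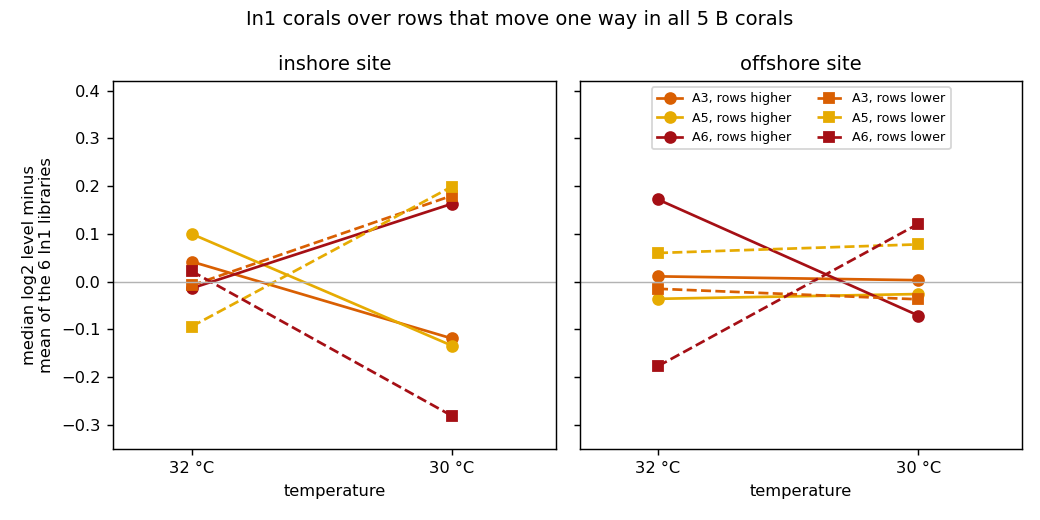
Median log2 level of each In1 coral at 32 and 30 °C, relative to the mean of the 6 In1 libraries of the same site, over rows higher (circles, solid) or lower (squares, dashed) at 32 °C in all 5 B corals. At the inshore site A6 runs against A3 and A5, and at the offshore site A6 has the widest difference, in the direction of the B corals.

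The libraries also carry numbers in the labels, whose meaning is not stated. Numbers 1 to 16 are all at 30 °C, in this comparison and in the rest of the series. Within this comparison the 30 °C libraries of A5, A6, B2, B4 and B6 are among them (A6 has number 2), while A3, B1 and B3 have both libraries above 16. In those 3 corals the 3 pairwise correlations of heat changes were positive, from 0.057 to 0.214. The 3 corals alone gave 0 calls among 26915 rows (edgeR, 1058 at an unadjusted p under 0.05). A term for the numbers beside the coral block gave 0 among 26002 rows, with 1239 at an unadjusted p under 0.05. No 32 °C library is numbered 1 to 16, so there too the heat change rests on A3, B1 and B3. It is therefore no second result. Both counts are less than 0.05 of the rows tested, against 8.57% in the main fit. The main fit draws on 8 corals, with 7 residual degrees of freedom, and the 3 corals alone leave 2. The smaller counts therefore do not measure the part of the numbers. The part of the numbers in the results of the other 5 corals was not tested.

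The corals differed in how much of the transcriptome moved. B3 had 7240 rows (27.8% of 26002) with an absolute log2 change over 1, B4 had 4521 (17.4%) and A6 had 3597 (13.8%). B6, B2 and A5 had 2941, 2298 and 2158 such rows. A3 and B1 had the fewest, with 1133 (4.36%) and 1099 (4.23%). B3, with the most such rows, was higher in 56% of the rows that were higher in the other 7 corals, and B4, with the next most, in 79.7%. B4 was also uneven in direction, with 2772 rows lower and 1749 higher by more than 2-fold at 32 °C.

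In B3 a few abundant rows took a larger share of the library at 32 °C. The 100 most abundant rows of each library held 25.6% of host counts in B3 at 32 °C, against 18.3% in B3 at 30 °C. In the other 7 corals this share was 15.2 to 17.5% at 32 °C and 15.2 to 18.7% at 30 °C. At an equal depth of 4677316 counts the B3 library at 32 °C had 48357 rows with a count, the fewest of the 16, and A6 at 30 °C had 54101, the most. Across corals the number of detected rows at that depth was 51100 ± 1247 at 32 °C and 51940 ± 1026 at 30 °C (SD, n = 8 each). It was lower at 32 °C in 7 of 8 corals, with a mean difference of -837.7 rows (exact sign-flip permutation p = 0.0156, 0.0625 after adjustment over 4 measures, two-sided), and so did not pass the threshold. Without B3, which had the widest difference (-2415), the mean was -612.4 rows (exact sign-flip permutation p = 0.125 adjusted, with 7 corals). The share of the top 100 rows was 17.3% ± 3.46 at 32 °C and 16.6% ± 1.34 at 30 °C (SD, n = 8). The mean difference was 0.658 percentage points, not past the threshold (exact sign-flip permutation p = 0.867 after adjustment over the 4 measures). Without B3 it was -0.288 (exact sign-flip permutation p = 0.562 after the same adjustment). With 7 corals 1 measure by itself cannot reach the adjusted threshold, so the p-values without B3 decide nothing for either measure.

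The share of counts from the D. trenchii table ranged from 0.0864 to 24.2% among the 16 libraries, and the order of the corals was much alike at both temperatures. B2 held 21.5% at 32 °C and 24.2% at 30 °C, A3 held 13.99% and 16.7%, and A5 9.75% and 6.73%. B4 held 0.119% and 0.0864%, and B6 0.0934% and 0.0936%. The widest Wilson 95% interval of these 16 shares was 0.0673 percentage points, which covers counting error only. The table covers 1 alga, so a low share does not show that a coral lacked symbionts of another kind.

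No common shift of that share with heat was shown. On the log2 scale, symbiont counts over host counts stood at -5.81 ± 3.56 at 32 °C and -5.68 ± 3.25 at 30 °C (SD, n = 8 each), a mean difference of -0.128 ± 1.41 (SD, 3 of 8 corals higher, exact sign-flip permutation p = 0.836, 0.867 adjusted over 4 measures, two-sided). With the 3 In1 corals averaged it was -0.461 over 6 genotypes (exact sign-flip permutation p = 0.542 after the same adjustment), too few for this measure by itself to reach the threshold. With single corals left out the mean lay between -0.479 (without A6) and 0.201 (without B3), also positive without B1 (0.0593). In the 3 corals numbered above 16 it was -1.39. Behind this mean lay large differences of opposite sign. The ratio was 5.02-fold higher at 32 °C in A6, whose share was 14.7% at 32 °C and 3.33% at 30 °C. It was 5.41-fold lower in B3, with 0.450% at 32 °C and 2.39% at 30 °C, and 2.72-fold lower in B1, with 0.246% and 0.666%. The widest shifts of the symbiont thus fell on A6 and B3, which also followed the rows higher in the other corals least. Over the lower rows A6 and B6 followed least, and the ratio of B6 hardly differed (1.002-fold). B1, with the next widest shift, followed in 69% of the higher and 69.9% of the lower rows. The part of the symbiont share in these differences was not tested. With the log2 ratio as a term beside the coral block, edgeR called 2 host rows, both higher.

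**Figure D4:**
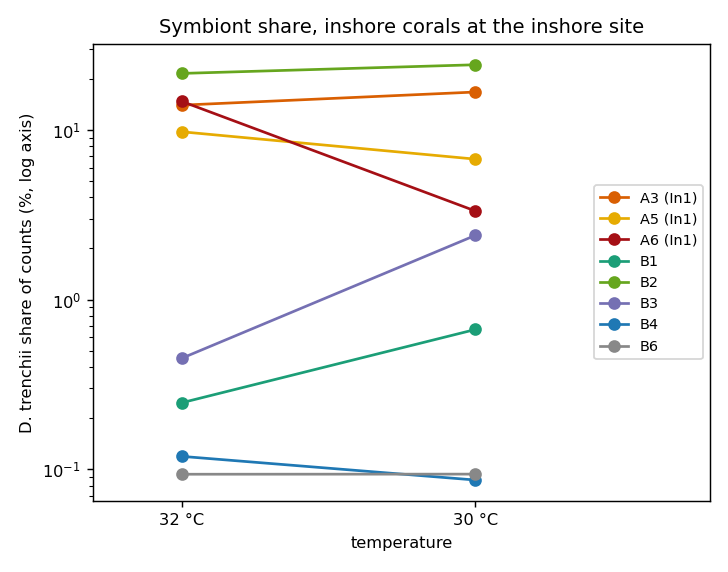
Share of counts (%, log axis) from the D. trenchii table at 32 and 30 °C, 1 line per coral. A6 is higher at 32 °C, B3 (the widest step) and B1 are lower, and the other 5 corals differ less.

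A set of 4 identifiers shows what the paired data look like at single rows. Since no row passed, they were chosen after the values were seen, as the 2 largest positive and 2 largest negative log2 changes among rows with 1 direction in 8 of 8 corals and a mean of at least 1 log2 CPM. No gene name is paired with any of them, so no role can be given.

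OFAVBQ_DN206490_c0_g1 had 0.618, 13.7 and 37.7 CPM at 32 °C and 0.214, 0.718 and 7.06 CPM at 30 °C (lowest, median and highest of 8 corals). The groups overlapped, and the In1 corals had more of it than the other 5 at both temperatures. A5 had 37.7 CPM at 32 °C and 7.06 at 30 °C, while B4 had 0.618 and 0.383, a difference of 3 against 2 counts. A6 had 24.8 CPM at 32 °C and 1.295 at 30 °C, so for this row A6 moved with the others. The fitted log2 change was 3.33 ± 0.361 (SE), or 10.1-fold, with an edgeR adjusted p of 0.055, the lowest of the 26002 rows. DESeq2 gave an adjusted p of 9.09e-10 and the fit over all 55 libraries 0.0231 (edgeR). Without B3 the edgeR fit of this comparison alone gave an adjusted p of 0.0319, past the threshold. With the term for the library numbers, where the heat change rests on A3, B1 and B3, the log2 change was 3.01. The edgeR adjusted p was then 0.791, the lowest of any row in that fit. With the In1 corals summed the log2 change was 3.36 and the edgeR adjusted p 0.278. In the offshore-site libraries of these 8 corals its mean log2 change was 0.16, higher in 4 of 8. In the offshore corals at the inshore site it was 1.75, higher in 3 of 5.

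OFAVBQ_DN207867_c1_g1 had 15.7, 171 and 274 CPM at 32 °C and 2.59, 16.9 and 30.9 CPM at 30 °C (lowest, median and highest of 8 corals). A3, B1, B2 and B6 had 256, 222, 274 and 205 CPM at 32 °C, and between 13.1 and 27.6 CPM at 30 °C. A6 and B4 stayed within the range of the 30 °C libraries when heated, at 18.3 and 15.7 CPM, against 2.59 and 12.3 CPM in the same corals at 30 °C. The fitted log2 change was 2.78 ± 0.417 (SE), or 6.87-fold (edgeR adjusted p = 0.134, DESeq2 adjusted p = 9.09e-10, edgeR over 55 libraries 0.00452). Without B3 the edgeR fit of this comparison alone gave an adjusted p of 0.0848. With the term for the library numbers the log2 change was 3.14 and the edgeR adjusted p 0.791, the lowest of that fit. At the offshore site this row was higher in 2 of 8 corals, with a mean log2 change of -0.16. In the offshore corals at the inshore site it was higher in 5 of 5, with a mean of 1.48. Its component has 4 rows in the table, between which reads could have been split.

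OFAVBQ_DN195907_c0_g3 had 1.65, 28.8 and 91.8 CPM at 32 °C and 31.6, 109 and 147 CPM at 30 °C (lowest, median and highest of 8 corals). B4 had the widest difference, with 1.65 CPM at 32 °C and 60.9 at 30 °C, and B2 followed with 14.1 and 147 CPM. A6 hardly differed, with 31.3 and 31.6 CPM, and was the lowest of the 8 corals at 30 °C. The fitted log2 change was -1.97 ± 0.460 (SE), or 3.93-fold lower (edgeR adjusted p = 0.316, DESeq2 adjusted p = 0.00147, edgeR over 55 libraries 0.0205). Without B3 these adjusted p-values were 0.0809 (DESeq2) and 0.0564 (edgeR), neither past the threshold. Its mean log2 change was -0.50 in these corals at the offshore site (higher in 2 of 8) and -1.58 in the offshore corals at the inshore site (higher in 1 of 5).

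OFAVBQ_DN225435_c1_g1 was a scarcer row, with 0.206, 0.896 and 3.26 CPM at 32 °C and 1.11, 4.12 and 8.57 CPM at 30 °C (lowest, median and highest of 8 corals). B2 had 0.831 CPM at 32 °C and 8.57 at 30 °C, and B1 3.26 and 4.58. A6 again stood apart, with 0.961 and 1.11 CPM, the lowest level at 30 °C. The fitted log2 change was -1.75 ± 0.377 (SE), or 3.35-fold lower (edgeR adjusted p = 0.294, DESeq2 adjusted p = 0.0375, edgeR over 55 libraries 0.0471). Without B3 they were 0.0512 (DESeq2) and 0.0818 (edgeR), neither past the threshold. Its mean log2 change was -0.42 in these corals at the offshore site (higher in 2 of 8) and -1.27 in the offshore corals at the inshore site (higher in 1 of 5). Its component has 10 rows in the table, between which reads could have been split.

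**Figure D5:**
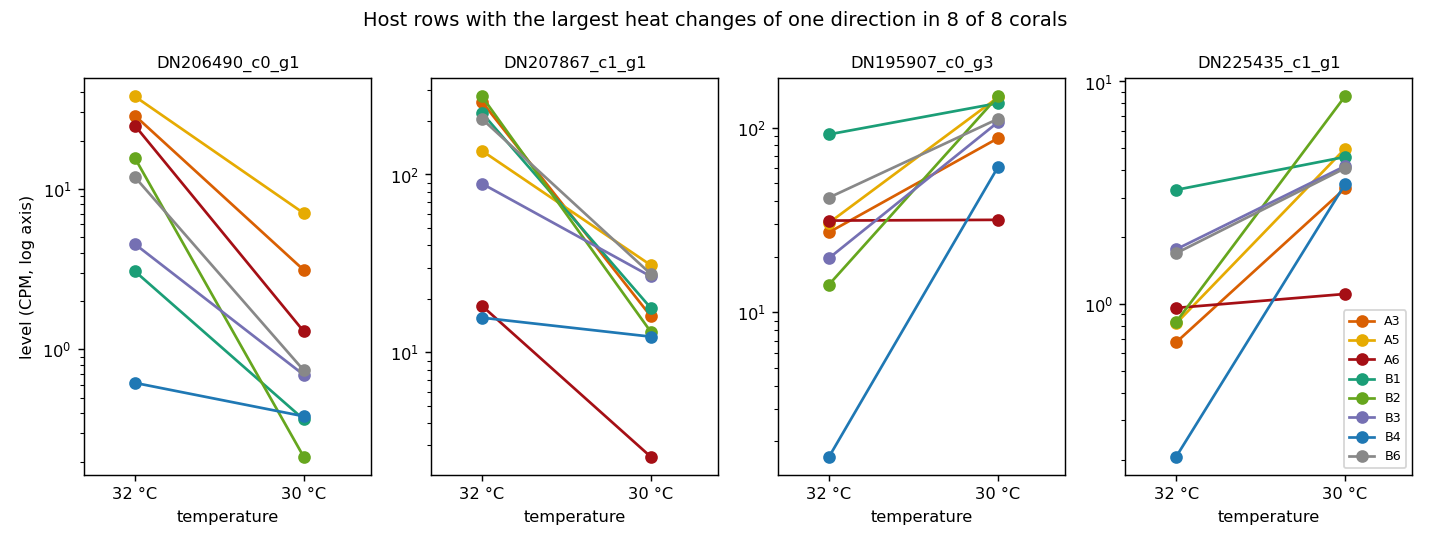
Level (CPM, log axis) of 4 host rows at 32 and 30 °C, 1 line per coral. Every line of the first 2 panels is higher at 32 °C and every line of the last 2 is lower there, with A6 nearly level in the last 2 and B4 nearly level in the first 2.

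No row was shown to respond to heat differently in In1 corals than in the other 5. The test of that difference called 0 of 26002 rows (0%), with 794 at an unadjusted p under 0.05 (edgeR), and DESeq2 called 0 of 78642 (0%). Without A6 the edgeR count was also 0, with 523 rows at an unadjusted p under 0.05.

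The heat response was also set against that of the same 8 corals at the offshore site, and of 5 offshore corals kept at the inshore site. The difference between sites called 0 of 29680 rows (0%) in the inshore corals (edgeR, 1217 at an unadjusted p under 0.05), while DESeq2 called 36 of 81360 (0.0442%), 26 of them with a higher log2 change at the inshore site. Without B3 DESeq2 called 75 of 80846 (0.0928%), 43 of them with a higher change at the inshore site. The difference between origins at the inshore site called 0 of 32045 rows (0%) with 694 at an unadjusted p under 0.05 (edgeR), and DESeq2 called 0 of 80765 (0%). Fitted alone like the 16 libraries here, the offshore-site libraries of these corals gave 0 calls among 24257 rows (edgeR, 1453 at an unadjusted p under 0.05). The 5 offshore corals at the inshore site gave 1 among 25901 (1643) and the 6 offshore corals at the offshore site 4 among 25516 (2049).

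The rows that moved 1 way in 8 of 8 corals tended to the same direction in libraries that had no part in their choice, at a smaller size. Of the 252 rows higher in every coral, 206 (81.7%) had a positive mean change in these corals at the offshore site, against 51% of all rows. The share was 85.3% in the 5 offshore corals at the inshore site (51.2% of all rows) and 80.2% in the 6 offshore corals at the offshore site (53.1%). Their median mean change was 0.45 on the log2 scale where they were chosen, and 0.14, 0.17 and 0.15 in those 3 sets of libraries. Of the 202 rows lower in every coral, 152 (75.2%) had a negative mean change in these corals at the offshore site, against 49% of all rows, with medians of -0.53 where chosen and -0.14 there. Choosing rows by their direction widens their changes in the libraries used for the choice. The smaller size elsewhere therefore does not show a weaker response there. In each of those 3 sets, too, the lowest library numbers of the labels belong only to unheated fragments. The direction shared between sets was therefore not separated from the library numbers. The part of the numbers in it was not tested.

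By coral, B3 and B2 followed the higher rows most at the offshore site, with 74.2% and 73.8% of the 252 rows higher at 32 °C, against 52.5% and 49.4% of all rows. A6 followed them there in 59.1% of the 252 (52.1% of all rows) and in 63.4% of the 202 lower rows (47.6% of all rows). B6 followed least, in 54.8% of the higher rows (50.7% of all rows) and 48% of the lower rows (48.4%). Few rows kept 1 direction in every coral at both sites: 14 of the 252 were higher in 8 of 8 corals at the offshore site too (5.56%, against 0.554% of all rows), and 14 of the 202 lower (6.93%, against 0.635%).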

How the data were processed

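Per the labels' protocols, total RNA of coral tissue went into strand-specific mRNA libraries. The authors deposited 2 tables of estimated counts per isoform, not normalized, with 87440 host and 52359 D. trenchii rows. The tables are named for kallisto, and Trimmomatic 0.36 and RSEM appear in the submitters' processing notes. The version of the quantifier and its reference assembly: not given in the sources used here. Per table, 1 column matched no label and was not used. Counts were rounded to whole numbers for edgeR 4.0.16 and DESeq2 1.42.0 in R 4.3.3.

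The main test was edgeR's quasi-likelihood F test on the 16 libraries: TMM factors, filterByExpr (minimum count 10), coral as a block because both fragments are 1 animal, Benjamini-Hochberg at 0.05. Libraries of 1 coral shared their deviation from the group means (r of 0.367 to 0.807 over 8 corals). The best match of A5 and of A6 was A3, which has the same genotype, and not their own coral. Changes per coral are differences of log2 CPM with a prior count of 2, and differences under 1e-06 count as none. Whole-library measures used exact sign-flip permutation tests, adjusted over 4 measures. Named identifiers were to have adjusted p under 0.05, which 0 rows had, so that condition was dropped. The labels name corals but not separate tanks, so p-values cover the spread between these fragments. The comparison and its lists were chosen with earlier results of these data known. The scripts were tested on simulated data.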

Additional observations from a re-analysis of the deposited data

Results flagged for a closer look

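Of 29 sets of 8 values examined for a single coral far from the rest, 5 held one. For independent sets of normally distributed values chance alone gives about 1 in 20. These sets share libraries, so the count cannot be set against that rate. The 5 fall on 2 corals. B3 at 32 °C had 25.57% of its host counts in its 100 most abundant rows, against 15.2 to 17.5% in the other 7, and its change in that share was 7.28 percentage points, against -1.41 to 0.492. It also had the fewest detected rows at equal depth at 32 °C, 48360 against 50740 to 52250 in the other 7.

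A6 had a median log2 change of -0.272 over the rows that were higher at 32 °C in the other 7 corals, against 0.094 to 0.374 for the other corals. OFAVBQ_DN207867_c1_g1 stood at 1.57 log2 CPM in A6 at 30 °C, against 3.66 to 4.97 in the other 7.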

How the results depend on the processing

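The heat count of 0 became 247 without the low-count filter, where edgeR's prior degrees of freedom were 31.3 in place of 3.64 and 56 of the 247 rows lay outside the 26002. It became 131 with DESeq2, 149 with DESeq2 on the filtered rows, 236 in the fit over all libraries, 57 over the 32 libraries of inshore corals, 2 with the symbiont ratio term and 2 without B3, the coral with a library standing apart. Without B3 those 4 larger counts were 167 (DESeq2), 189 (DESeq2 on filtered rows), 167 (all libraries) and 83 (inshore corals). Leaving out 1 coral from the 16-library fit gave 0 to 2, the 2 without B3 or B6. It was 0 with RLE factors, a minimum count of 30, In1 summed, no replicate block (1446 at an unadjusted p under 0.05), the library number term and the corals numbered above 16. In the fit with the number term, too, the heat change rests on A3, B1 and B3. Without the filter the differences by In1, site and origin gave 10, 1 and 26 calls, and DESeq2 gave 36 by site (75 without B3). Leaving out 1 coral gave 0 to 1 by site (1 without A6) and 0 to 1 by origin (1 without B4). For the 4 whole-library measures, leaving out or averaging corals leaves too few for 1 measure by itself to reach the adjusted threshold, so those alternatives show nothing about their stability. The 4 named identifiers kept their sign in each alternative that tested them (23 to 25). The DESeq2 fit on filtered rows, the fit over 32 libraries and these counts without B3 were added after the data were seen. The causes were not tested.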
